A study of Mus musculus with 7 samples.

Results

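The 7 genes described here belong to the tumour necrosis factor (TNF) superfamily and were read across the leukocytes of the infarcted mouse heart: the ligands Tnf, Tnfsf9, Tnfsf12, Tnfsf13b and Tnfsf14 and the receptors Tnfrsf1a and Tnfrsf1b. They were chosen by symbol, as gene rows present in all 7 single-cell count matrices of the series, and are 7 of the 27514 genes that the matrices share. The rule uses the symbols alone. All animals were C57BL6/J mice, and infarction was induced by permanent ligation of the left descending coronary artery. Cardiac CD45+ leukocytes of male mice were profiled in 5 libraries, 1 each for the steady state without infarction (day 0, 5 mice), day 1 (5 mice), day 3 (5 mice), day 5 (5 mice) and day 7 (3 mice) after infarction. Cells reached by a CD45.2 antibody injected into the circulation were gated out, and part of the neutrophils was removed before loading. A second experiment sorted cardiac CD11b+ myeloid cells of male mice on day 1 (5 mice), day 3 (5 mice) and day 5 (3 mice) and pooled them under 1 hashtag antibody per day. A further experiment pooled CD11b+ cells of blood and of mechanically dissociated ischemic heart from mice 8 to 10 weeks old, under hashtags 1 to 7. Its conditions were no surgery (3 mice), sham surgery on day 1 and day 3 (3 mice each) and infarction on day 1 and day 3 (5 mice each). The labels do not pair these hashtags with conditions, so their values are given per hashtag and enter no test. The animals of a library or hashtag were pooled, so each gives 1 value per cell class.

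Ligands of the TNF superfamily are mostly trimeric type II membrane proteins, several of which are cut from the surface by metalloproteases. TNF, the founding member, is made above all by activated myeloid cells and lymphocytes, is shed by ADAM17 and acts through TNFR1 (Tnfrsf1a) and TNFR2 (Tnfrsf1b). TNFR1 carries a death domain and is found on most cell types, where it can lead to NF-κB activation or to cell death. TNFR2 has no death domain and is found mainly on leukocytes and endothelial cells. Of the other ligands, 4-1BBL (Tnfsf9) costimulates T and NK cells through Tnfrsf9. TWEAK (Tnfsf12) acts through Fn14 (Tnfrsf12a), a receptor induced in injured tissue. BAFF (Tnfsf13b) is a survival factor of B cells that binds Tnfrsf13c, Tnfrsf13b and Tnfrsf17. LIGHT (Tnfsf14) binds Tnfrsf14 and the lymphotoxin-β receptor (Ltbr).

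In the GRCm38 assembly with the GENCODE M21 annotation, Tnf (ENSMUSG00000024401) lies on the minus strand at chr17:35199381-35202007, between Lta at chr17:35203165-35205351 and Ltb at chr17:35194439-35196320. On the same chromosome Tnfsf9 (ENSMUSG00000035678) spans chr17:57105325-57107757 on the plus strand and Tnfsf14 (ENSMUSG00000005824) spans chr17:57189492-57194177 on the minus strand. Tnfsf12 (ENSMUSG00000097328) lies at chr11:69686250-69695849 on the minus strand. It sits inside the readthrough gene Tnfsfm13 (chr11:69682577-69696098), on the same strand. Reads of shared sequence may not be assigned to Tnfsf12, so its counts are uncertain. An antisense gene, Tnfsf13os, overlaps it on the other strand. Tnfsf13b (ENSMUSG00000031497) is at chr8:10006467-10039072 on the plus strand, Tnfrsf1a (ENSMUSG00000030341) at chr6:125349362-125362484 on the plus strand and Tnfrsf1b (ENSMUSG00000028599) at chr4:145213463-145246870 on the minus strand. Genes of the other strand overlap Tnfsf9 (Gm11110) and Tnfsf13b (Gm44789).

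Tnf mRNA is known for AU-rich elements in its 3′ UTR, which proteins such as tristetraprolin (Zfp36) bind to speed its decay. The element is shown because the levels of Tnf below range over more than 2 orders of magnitude between cells and preparations. The site lies in exonic 3′ UTR at chr17:35199681-35199710 (GRCm38, minus strand), 435 bases after the stop codon. Capitals mark 4 copies of the nonamer TTATTTATT, some of which overlap.
Tnf 3′ UTR site: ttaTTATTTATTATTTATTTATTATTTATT
The whole 3′ UTR of Tnf, 764 bases long, held 5 nonamers and 8 copies of ATTTA. Among the other members only Tnfsf13b held a nonamer, 1 in 3631 bases. A nonamer stood in the 3′ UTR of 1610 of 21022 genes (7.66%), and 42 genes (0.200%) held as many as Tnf. The 250 bases before the start of Tnf are shown for comparison with what is known of its promoter. They come from RefSeq on GRCm38.p6 (chr17:35202008-35202257, minus strand), with the TATAAA box in capitals, its first base 29 bases before the start.
Tnf promoter: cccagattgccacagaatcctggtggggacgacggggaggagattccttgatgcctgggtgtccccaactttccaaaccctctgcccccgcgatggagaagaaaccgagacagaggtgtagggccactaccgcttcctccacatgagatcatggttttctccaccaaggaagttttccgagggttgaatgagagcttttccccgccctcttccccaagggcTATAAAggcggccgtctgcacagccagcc
In windows of 300 bases (250 before to 50 after the start), on both strands, TATAAA occurred in 13.6% of 32851 RefSeq promoters. Of the members with an entry (Tnf, Tnfsf13b, Tnfsf14, Tnfrsf1a and Tnfrsf1b), only Tnf held it. The consensus κB motif, present in 4.51% of windows, was in none of them. Only the form GGGRNWYYCC was searched and only in these windows, so sites further away or of looser sequence would be missed. The AP-1 motif TGANTCA (7.81% of windows) was found at Tnfsf13b and Tnfsf14, and the ETS core GAGGAA (28.3%) at Tnf, Tnfsf14 and Tnfrsf1b.

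After filtering, 522 to 1793 cells and 3611089 to 11511763 UMIs were used per CD45+ library, 4282 cells and 92965617 UMIs in the CD11b+ heart pool, and 9999 cells and 68219740 UMIs in the blood and heart pool. Median UMIs per cell were 3594 to 9464 in the CD45+ libraries, 18083 in the heart pool and 4282 in the blood and heart pool. Cells were clustered without the 45 genes of the superfamily, and clusters were named from marker genes. The neutrophil class carried its 16 markers at a summed level of 48630 to 259300 CPM (UMIs of a gene or list per 1000000 UMIs of the class), against 142 to 18550 CPM in monocytes/macrophages. The highest of the latter values was that of the CD45+ library of day 1. Monocyte/macrophage markers summed to 12660 to 66180 CPM in their own class and to 947.6 to 9294 CPM in neutrophils. Any pair of CD45+ libraries shared at most 2 cell barcodes, and the pools shared 28. Levels below are CPM of all UMIs of the class in 1 library or hashtag, with exact Poisson 95% intervals where quoted, which cover counting error only.

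Tests used UMIs summed per class, day (1, 3 and 5) and experiment (CD45+ and CD11b+ heart pool), 12 sums of 40 to 1214 cells. Days were compared within a class with the experiment as a term, and the classes were compared with each library as a block, by edgeR's quasi-likelihood test with Benjamini-Hochberg adjustment over all genes tested. A gene is called when its adjusted p is under 0.05. Values after ±, given as SE, are approximate. They are the absolute log2 change divided by the square root of the F statistic of edgeR's test, which gives no SE itself. Fitted changes, and changes within an experiment, are scaled between sums by edgeR's TMM factors (trimmed mean of M-values). CPM levels and ratios of CPM are not scaled in this way, so they can differ from the fitted changes in size and sign. The 2 experiments per day differ in sort and chemistry, and the experiment term takes out their constant offset. A p-value between days therefore sets a change against its disagreement between the 2 experiments. Between classes it rests on how the difference varies over the libraries and hashtags. In both, the spread of a gene is drawn towards that of other genes, and the spread between animals is not measured.

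Neutrophils carried more Tnf, Tnfsf13b, Tnfsf14, Tnfrsf1a and Tnfrsf1b than monocytes/macrophages of the same hearts, and less Tnfsf12. Tnfsf9 did not pass the test between classes. In all, 6 of the 7 members were called, 5 higher and 1 lower in neutrophils. The classes differ in most genes: 4803 of 8515 genes (56.4%) were called, 25.0% higher and 31.4% lower in neutrophils. Scaled by total counts alone, 1247 genes were higher and 3481 lower, and the direction of the 6 members was the same. Over time few members were called. In neutrophils Tnfsf9 was higher on day 3 than on day 1 (1 of 5 members tested, against 2.35% of genes, 0.535% higher and 1.82% lower). Scaling by total counts alone called 393 genes higher and 52 lower there. None of the 5 was called on day 5 against day 1 (7.18% of genes, 1.88% higher and 5.30% lower, or 1114 genes higher and 89 lower with total counts alone). None was called on day 5 against day 3, where edgeR called no gene (0.00%), 125 genes had a raw p under 0.05 and DESeq2 called 1. Tnfsf12 and Tnfsf13b had too few UMIs in neutrophils for a test between days. In monocytes/macrophages no member was called on day 3 against day 1 (0.841% of genes, 0.189% higher and 0.652% lower) or on day 5 against day 3 (0.0567%). On day 5 against day 1, Tnf was lower and Tnfsf12 higher (2 of 7 members, against 10.5% of genes, 4.52% higher and 6.00% lower, or 622 genes higher and 337 lower with total counts alone). The day effect itself differed between the classes for no member on day 3 against day 1 (0.0197% of genes called), day 5 against day 1 (0.621%) or day 5 against day 3. In that last comparison edgeR called no gene (0.00%), 349 had a raw p under 0.05 and DESeq2 called 2.

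**Figure D1:**
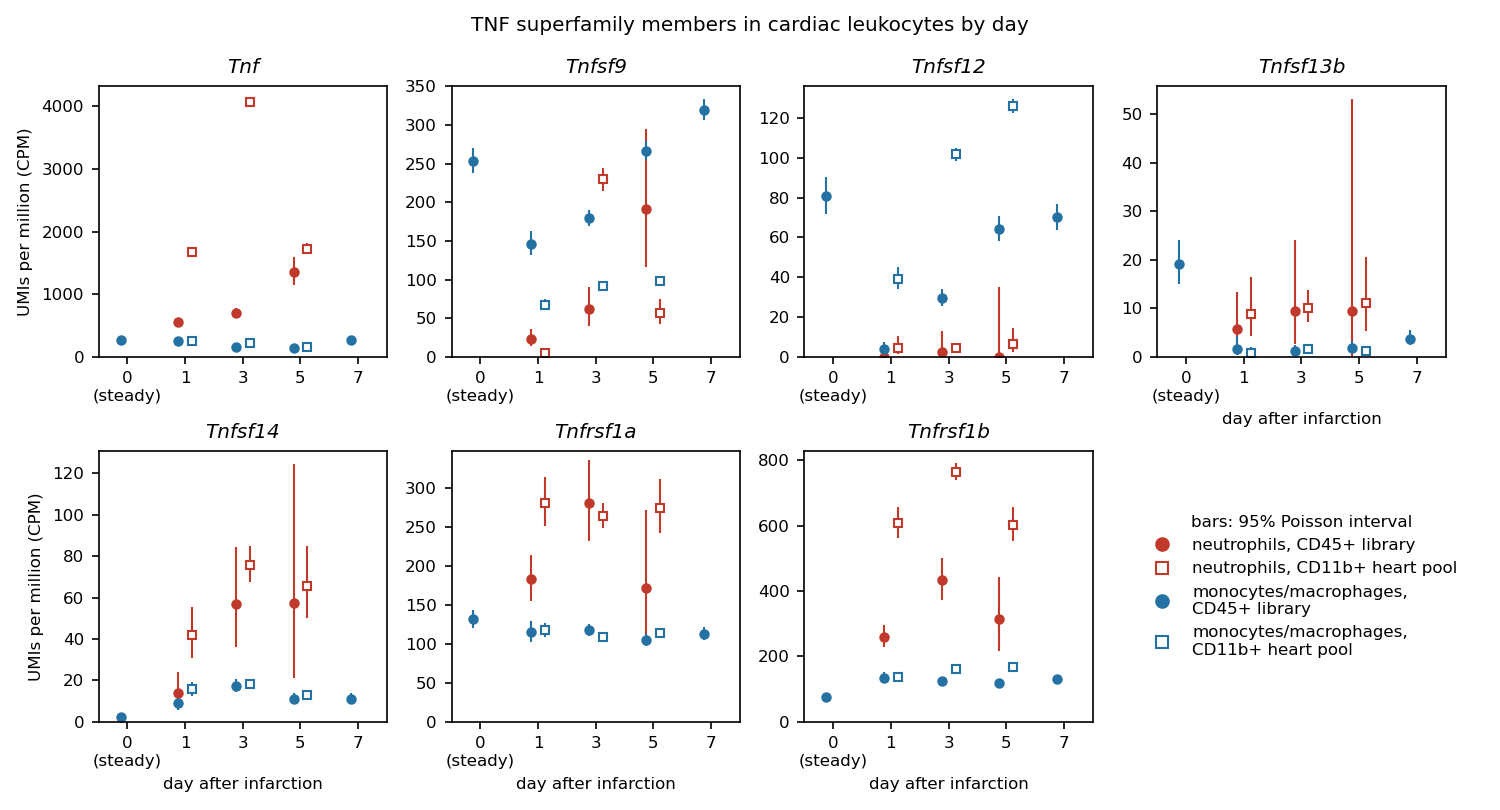
Level of each member in CPM (y axis, linear from 0) against day after infarction (x axis), for neutrophils (red) and monocytes/macrophages (blue) of the CD45+ libraries (filled circles) and the CD11b+ heart pool (open squares), with 95% Poisson intervals. All 6 neutrophil values of Tnf lie above all monocyte/macrophage values, and Tnfsf12 is higher in monocytes/macrophages in each of the 6 pairs of sums.

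Tnf was higher in neutrophils of the infarcted heart than in its monocytes/macrophages. In the CD45+ libraries, neutrophils held 554 CPM on day 1, 697 on day 3 and 1356 on day 5. In the CD11b+ heart pool they held 1678, 4065 and 1727 CPM on the same days. Monocytes/macrophages held 266 CPM in the steady state, then 256, 153, 137 and 273 CPM on days 1, 3, 5 and 7, and 248, 219 and 157 CPM on days 1, 3 and 5 of the pool. The classes did not overlap in any library of the hearts. The fitted difference was 9.39-fold (log2 3.23 ± 0.30 SE, adjusted p 2.63e-07, edgeR), with ratios of 2.16 to 18.5 in the 6 pairs of sums and intervals apart in 6 of 6. The heart pool of day 3 was the highest of all values.

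The share of cells with a Tnf UMI, after thinning each cell to 2000 UMIs, gave the same order of classes. It was 42.6%, 52.6% and 60.0% of CD45+ neutrophils on days 1, 3 and 5, and 66.8%, 84.0% and 66.4% of pool neutrophils. Without thinning these shares were 55.1%, 56.3%, 67.5%, 78.7%, 88.5% and 75.0%. In monocytes/macrophages the thinned share was 19.2% to 29.4% over the 8 heart values (43.5% to 77.6% without thinning). Thinning left out 0 to 41 shallower cells per heart value of either class. B cells of the day 7 library, taken as a cell type with little Tnf, gave 6.44% (exact binomial 95% interval 4.97 to 8.18%, 9.24% without thinning, median depth 2756 UMIs, against 2543 to 4333 in neutrophils). The shares of both myeloid classes lay above that level. These B cells are of 1 library and day, so they do not measure the background of the other libraries or of the pool.

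In neutrophils no change of Tnf between days was called. The fitted log2 change was 0.21 ± 0.46 on day 3 against day 1 (adjusted p 0.849) and -0.30 ± 0.46 on day 5 against day 1 (adjusted p 0.736, edgeR). After TMM scaling the experiments differed in sign: on day 3 against day 1 the change was -0.45 in the CD45+ libraries and 0.68 in the pool. The unscaled CPM rose in both, from 554 to 697 in the CD45+ libraries and from 1678 to 4065 in the pool. With total counts alone the change on day 5 was 0.77. In monocytes/macrophages Tnf fell by 1.05 ± 0.20 on the log2 scale from day 1 to day 5 (adjusted p 0.0307, edgeR), to 0.484 of its level. It was lower on day 5 in both experiments, by -1.14 in the CD45+ libraries and -0.77 in the pool. This call was lost under 9 of 16 alternatives, with the same sign in all 16. It was lost without either day 5 sum (adjusted p 0.232 without the CD45+ sum and 0.112 without the pool sum) and without the pool sum of day 3 (0.0528). With a smaller constant in the naming of clusters, which left 33 to 51 monocytes/macrophages per CD45+ sum, the change was -2.31 (adjusted p 0.2195). Neutrophil markers moved with this comparison: in the CD45+ monocytes/macrophages they summed to 18550 CPM on day 1, 1680 on day 3 and 383 on day 5, and in the pool to 1978, 722 and 627 CPM. Their part in the fall of Tnf was not tested. Most cells of the class also belonged to other clusters on the 2 days compared: CD45+ cluster 13 held 83.7% of them on day 1 and cluster 7 held 64.0% on day 5, and pool cluster 0 held 74.6% on day 1 and cluster 1 held 65.2% on day 5.

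Genes of the cellular response to tissue dissociation were measured beside Tnf. The 10 genes (Fos, Fosb, Jun, Junb, Egr1, Ier2, Atf3, Dusp1, Hspa1a and Hspa1b) summed to 3625 to 8148 CPM in CD45+ neutrophils and 8861 to 12670 CPM in pool neutrophils, whose hearts were digested for 1 h at 37 °C. They summed to 2654 to 3501 CPM in neutrophils of the blood and heart pool. In monocytes/macrophages the sums were 3542 to 17200 CPM, 3697 to 4701 CPM and 701 to 1524 CPM in the same order, highest in the steady state. Between the classes 5 of the 10 genes were higher and 2 lower in neutrophils, against 25.0% and 31.4% of all genes. Their part in the levels of Tnf was not tested.

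Other leukocyte classes reached 30 cells mainly in the day 7 library. There B cells held 32.0 CPM, T cells 36.0 CPM, NK cells 37.6 CPM and dendritic cells 55.9 CPM of Tnf. Dendritic cells of day 5 held 17.3 CPM (5 UMIs). The T cell cluster over all 5 CD45+ libraries held 113 CPM (71 UMIs, 15 of them of day 7). T cells of each of the other libraries were under 30 in number and were not summed. The intervals of the 4 classes of day 7 overlapped, that of dendritic cells running from 38.7 to 78.1 CPM and that of B cells from 26.0 to 39.0 CPM. Monocytes/macrophages of the same library, at 273 CPM, stood above them (260.6 to 286 CPM).

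Tnf was scarce in the blood and heart pool. Neutrophils held 7.27, 10.0, 5.16, 6.18, 8.02, 25.4 and 46.6 CPM under hashtags 1 to 7. Monocytes/macrophages held 6.00, 5.88, 3.81, 6.16, 3.40, 11.5 and 12.2 CPM. None of the 7 hashtags reached the lowest heart value of either class. Hashtags 6 and 7 were the highest in both classes, and the intervals of the classes were apart in 2 of the 7 hashtags. Thinned shares were 0.815% to 5.12% in neutrophils (1.77% to 8.96% without thinning). B cells of day 7, from another preparation and chemistry, gave 6.44% (4.97% to 8.18%), an interval that holds the highest of these shares. Tissue, digestion and library changed together between this pool and the digested hearts and cannot be told apart. Library chemistry also differed from that of the CD45+ libraries. The 2 pools were both hashtagged and processed with Cell Ranger 3.0.2.

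**Figure D2:**
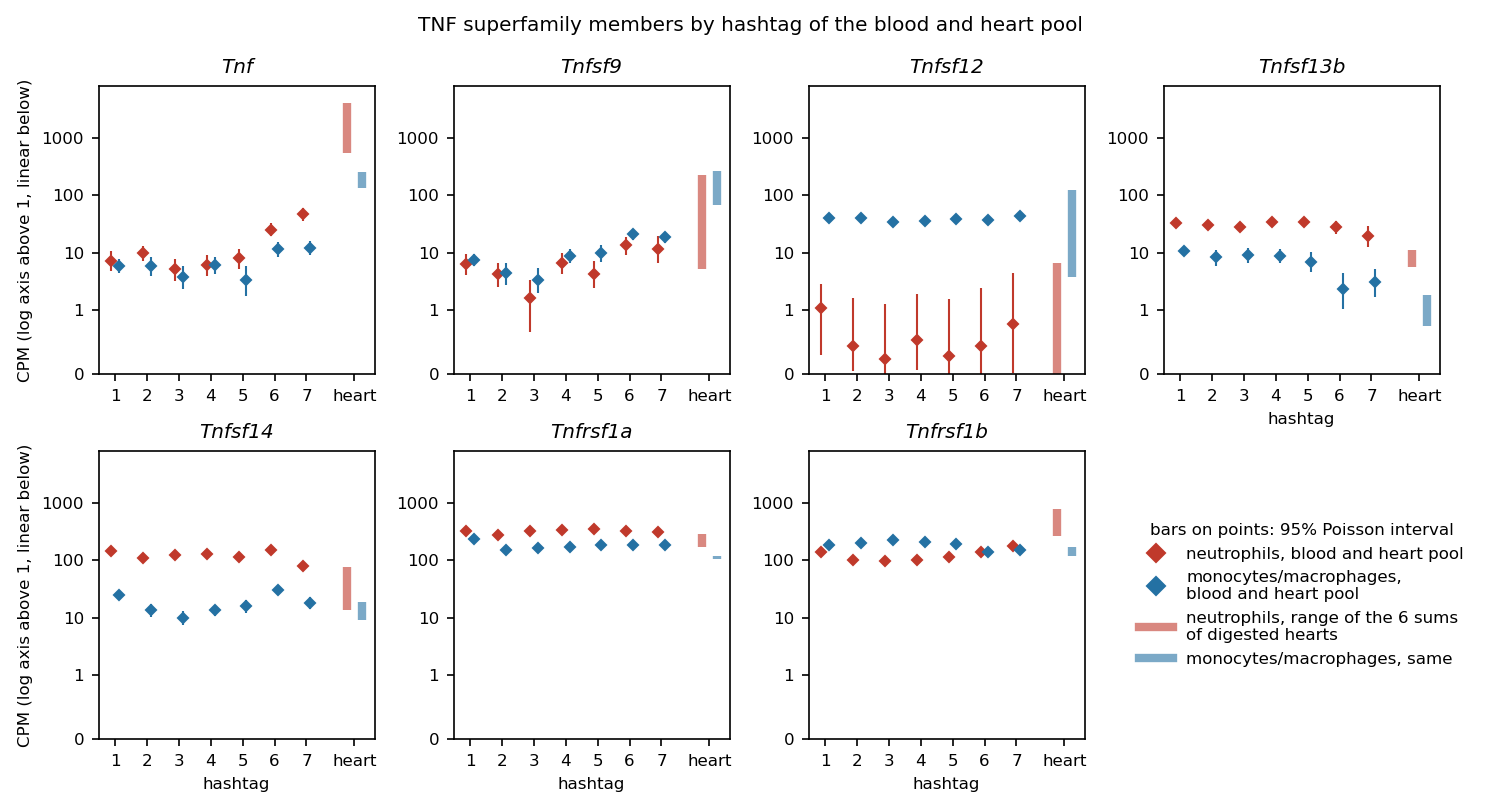
Level of each member (CPM, y axis, log scale above 1 and linear below) under hashtags 1 to 7 of the blood and heart pool (diamonds with 95% Poisson intervals; neutrophils red, monocytes/macrophages blue), beside the range of the 6 sums of digested hearts of days 1, 3 and 5 (thick bars). Tnf lies far below the heart range in all 7 hashtags, while the values of Tnfsf13b and Tnfsf14 of neutrophils lie above it. The heart range is of point values and carries no intervals.

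Tnfsf9, the ligand 4-1BBL, was mainly found in monocytes/macrophages and dendritic cells. Monocytes/macrophages held 253 CPM in the steady state and 146, 179, 266 and 319 CPM on days 1, 3, 5 and 7, and 66.9, 91.3 and 98.3 CPM on days 1, 3 and 5 of the pool. Dendritic cells held 197 CPM on day 5 and 212 CPM on day 7, within the range of the monocytes/macrophages. B cells held 15.03, T cells 16.8 and NK cells 21.5 CPM on day 7, with intervals that overlapped one another and lay below those of dendritic cells and monocytes/macrophages of that day. In neutrophils the level depended on day and experiment: 23.0, 61.4 and 191 CPM in the CD45+ libraries and 5.34, 229.6 and 56.8 CPM in the pool.

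The rise of Tnfsf9 in neutrophils from day 1 to day 3 was 7.52-fold (log2 2.91 ± 0.73, adjusted p 0.0438, edgeR). It was 0.62 on the log2 scale in the CD45+ libraries (20 UMIs on day 1 and 26 on day 3) and 4.72 in the pool (6 UMIs and 930 UMIs). Without the pool sum of day 3 it was 0.87 (adjusted p 0.813), and with the classes of the pool taken from the Ly6G antibody it was 0.87 (adjusted p 0.551). The call was also lost without either day 5 sum, without the experiment term and with the superfamily genes kept in the clustering (adjusted p 0.0529 in the last), and kept its sign in 16 of 16 alternatives. On day 5 against day 1 the change was 1.91 ± 0.73 (adjusted p 0.119), called under 6 of 16 alternatives. Neutrophils also changed clusters: cluster 3 held 84.6% of the pool's neutrophils on day 1, and cluster 2 held 83.5% on day 3 and 72.8% on day 5. In monocytes/macrophages Tnfsf9 changed by 0.46 ± 0.18 on day 5 against day 1 (adjusted p 0.143, edgeR). Between the classes the difference was -0.77 ± 0.41 (adjusted p 0.116, edgeR), with monocytes/macrophages higher in 5 of 6 pairs of sums. The exception was the pool on day 3, where 16.1% of neutrophils had a Tnfsf9 UMI after thinning, against 0.862% on day 1 and 6.16% on day 5. B cells of the CD45+ library of day 7, from another experiment and chemistry, gave 3.22%, which does not measure the background of the pool. Without thinning these shares were 19.8%, 1.58%, 9.38% and 4.78%. Without the pool sum of neutrophils on day 3 the difference was -1.38 (adjusted p 0.00106), and without that of monocytes/macrophages -1.39 (0.00101). In the blood and heart pool monocytes/macrophages held 3.43 to 21.0 CPM and neutrophils 1.64 to 13.6 CPM, with monocytes/macrophages higher in 7 of 7 hashtags and intervals apart in none.

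Its receptor Tnfrsf9 was found in NK, T and dendritic cells, and in monocytes/macrophages mainly on day 1. On day 7, NK cells held 242 CPM, T cells 74.4 CPM, dendritic cells 74.0 CPM (110.5 CPM on day 5) and B cells 2.29 CPM. Monocytes/macrophages had no UMI in the steady state, then 24.8, 1.41, 0.617 and 2.50 CPM on days 1, 3, 5 and 7. In the pool they held 14.9, 0.840 and 0.281 CPM. Tnfrsf9 fell by 4.35 ± 0.31 on the log2 scale from day 1 to day 3 (adjusted p 0.0188) and by 5.81 ± 0.35 to day 5 (adjusted p 0.00324, edgeR) in monocytes/macrophages. It was lower in both experiments, and the call of day 5 was lost under 2 of 15 alternatives, the fit without the experiment term (adjusted p 0.154) and the wider mitochondrial limit (-3.72, adjusted p 0.0525). The call of day 3 was lost under 4 of 15, among them the fit without the pool sum of day 3 (adjusted p 0.0887).

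Tnfsf12, the ligand TWEAK, was a monocyte/macrophage transcript that was low on day 1. Monocytes/macrophages held 80.7 CPM in the steady state, 3.85 CPM on day 1 (9 UMIs), 29.6 on day 3, 64.2 on day 5 and 70.2 on day 7. The pool gave 39.3, 102 and 126 CPM on days 1, 3 and 5. Levels thus stood in the same order of days in both experiments, though the pool was higher on each day. The rise from day 1 to day 5 was 4.73-fold (log2 2.24 ± 0.46, adjusted p 0.0351, edgeR), 3.76 on the log2 scale in the CD45+ libraries and 1.57 in the pool. It was not called under 6 of 16 alternatives and had the same sign in all 16, from 1.33 to 3.57. Without the CD45+ sum of day 5 it was 1.79 (adjusted p 0.0556). On day 3 against day 1 the change was 1.52 ± 0.45 (adjusted p 0.177, edgeR), called under 7 of 16 alternatives. The steady-state library was 20.9-fold above the day 1 library and 1.15-fold above that of day 7, whose intervals overlapped, with no replicate of either. In neutrophils the gene gave 0, 1 and 0 UMIs in the CD45+ libraries and 5, 18 and 6 UMIs in the pool (4.45, 4.44 and 6.69 CPM). Monocytes/macrophages were higher in 6 of 6 pairs of sums, with intervals apart in 5. The fit put neutrophils lower by 3.81 ± 0.37 on the log2 scale (adjusted p 4.48e-07, edgeR). With pool classes from the Ly6G antibody the difference was -0.74 (adjusted p 0.26). NK cells held 43.0 CPM (8 UMIs), and B, T and dendritic cells 3.45 to 18.1 CPM.

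In the blood and heart pool Tnfsf12 of monocytes/macrophages was nearly constant, at 34.7 to 44.0 CPM over the 7 hashtags, against 0.235 to 1.12 CPM in neutrophils. The unnamed clusters of that pool are not part of this range. Its receptor Tnfrsf12a stood at 22.7 to 47.7 CPM in monocytes/macrophages of the heart and 6.91 to 38.2 CPM in neutrophils. In the blood and heart pool it was at 3.06 to 11.8 CPM in monocytes/macrophages and 0.893 to 4.74 CPM in neutrophils, below the heart values of each class.

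Tnfsf13b, the B-cell survival factor BAFF, was rare in the heart and more abundant in neutrophils than in monocytes/macrophages. Heart neutrophils held 5.76, 9.45 and 9.55 CPM in the CD45+ libraries (5, 4 and 1 UMIs) and 8.91, 10.1 and 11.1 CPM in the pool (10, 41 and 10 UMIs). Monocytes/macrophages of infarcted hearts held 0.763 to 3.75 CPM, against 19.1 CPM (74 UMIs) in the steady state. The steady-state library was 15.1-fold above that of day 3 and 5.10-fold above that of day 7, with no replicate. The class difference was 9.02-fold (log2 3.17 ± 0.34, adjusted p 1.48e-06, edgeR), with neutrophils higher in 6 of 6 pairs of sums and intervals apart in 4. No change between days was called in monocytes/macrophages. B, T, NK and dendritic cells of day 7 had no UMI, which at 3 UMIs allows up to 0.980 CPM in B cells and 16.1 CPM in NK cells. Over all CD45+ libraries dendritic cluster 4 gave 6 UMIs (3.95 CPM) and the NK and T clusters 1 UMI each.

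In the blood and heart pool, neutrophils held 19.8 to 34.6 CPM of Tnfsf13b under the 7 hashtags, above the point values of all 6 heart sums. The CD45+ sums rest on 5, 4 and 1 UMIs, whose wide intervals were not compared with the pool. Monocytes/macrophages of the blood and heart pool held 2.31 to 10.8 CPM. The class order was the same in 7 of 7 hashtags. Of its receptors, Tnfrsf13c, the main BAFF receptor, was at 118 CPM in B cells and at 0 UMIs in neutrophils of every library. Tnfrsf13b (TACI) was at 79.1 CPM in B cells and at 23.6 to 38.0 CPM in monocytes/macrophages of the heart. Monocytes/macrophages of the blood and heart pool held 57.1 to 82.4 CPM of it. In neutrophils Tnfrsf13b fell by 2.22 ± 0.57 on the log2 scale from day 1 to day 3 (adjusted p 0.0495, edgeR), a call lost under 12 of 16 alternatives, including those without either day 3 sum, either day 5 sum or the pool sum of day 1 (adjusted p 0.0714 to 0.739). In the CD45+ libraries this rests on 9 UMIs on day 1 and 2 on day 3. Tnfrsf17 (BCMA) gave 70 UMIs (18.1 CPM) in steady-state monocytes/macrophages and at most 0.938 CPM in those of infarcted hearts.

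Tnfsf14, the ligand LIGHT, was higher in neutrophils than in monocytes/macrophages in all 3 experiments. Heart neutrophils held 13.8, 56.7 and 57.3 CPM in the CD45+ libraries and 41.9, 75.8 and 65.8 CPM in the pool. Monocytes/macrophages held 2.33 CPM in the steady state, 8.99 to 17.3 CPM on days 1 to 7 and 13.02 to 18.5 CPM in the pool. The difference between classes was 4.56-fold (log2 2.19 ± 0.22, adjusted p 8.08e-07, edgeR). Neutrophils were higher in 6 of 6 pairs of sums, at ratios of 1.54 to 5.16, with intervals apart in 5. No day effect was called in either class: on day 3 against day 1 the log2 change was 0.66 ± 0.45 in neutrophils (adjusted p 0.472) and 0.30 ± 0.25 in monocytes/macrophages (adjusted p 0.553, edgeR). On day 5 against day 3 the change in monocytes/macrophages was -0.60 ± 0.23 (adjusted p 0.619, edgeR), called under 3 of 16 alternatives. The 4 libraries of infarcted hearts held 3.86 to 7.44 times the steady-state level in monocytes/macrophages, where the steady state rests on 9 UMIs of 1 library. Dendritic cells of day 7 held 6.58 CPM, NK cells 5.37 CPM (1 UMI) and B cells 0.327 CPM (1 UMI), and T cells had no UMI.

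Neutrophils of the blood and heart pool held 79.8 to 149 CPM of Tnfsf14, above the point values of all 6 heart sums. The CD45+ sums rest on 12, 24 and 6 UMIs, whose intervals were not compared with the pool. Monocytes/macrophages of the blood and heart pool held 9.91 to 30.5 CPM. The classes were apart in 7 of 7 hashtags, at ratios of 4.40 to 12.3. Its receptor Ltbr stood at 13.4 to 19.1 CPM in heart neutrophils and at 55.6 to 70.5 CPM in those of the blood and heart pool. In monocytes/macrophages it was at 20.1 to 39.5 CPM in the heart and 52.2 to 75.8 CPM in that pool. Tnfrsf14, its other receptor, stayed at or under 3.77 CPM in both classes.

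Tnfrsf1a, the death-domain receptor, differed between the classes and in no test between days. Heart neutrophils held 183, 281 and 172 CPM in the CD45+ libraries and 281, 265 and 275 CPM in the pool. Monocytes/macrophages held 105 to 132 CPM in the 5 CD45+ libraries and 109.5 to 118 CPM in the pool. The fitted class difference, after TMM scaling, was 2.83-fold (log2 1.50 ± 0.21, adjusted p 1.72e-05, edgeR). Ratios of unscaled CPM were all lower, at 1.59 to 2.42, with neutrophils higher in 6 of 6 pairs of sums and intervals apart in 5. With pool classes from the Ly6G antibody, whose neutrophil class is mixed, the fitted log2 difference was 0.87 (adjusted p 0.0614, edgeR). No day effect was called. In the blood and heart pool neutrophils held 279.8 to 355 CPM and monocytes/macrophages 152 to 235 CPM, again with neutrophils higher in 7 of 7 hashtags. The 7 values of monocytes/macrophages there lay above all 8 of their heart values. Among the other classes of day 7, dendritic cells held 74.0 CPM, NK cells 37.6, T cells 31.2 and B cells 10.8 CPM. NK cells (15.1 to 77.5 CPM) overlapped dendritic, T and B cells, and T cells stood above B cells.

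Tnfrsf1b, the leukocyte TNF receptor, was higher in neutrophils of the digested hearts and had another order of classes under 5 of 7 hashtags of the blood and heart pool. Heart neutrophils held 260.1, 432 and 315 CPM in the CD45+ libraries and 608, 765 and 603 CPM in the pool. Monocytes/macrophages held 75.5 CPM in the steady state, 135, 125, 117 and 132 CPM on days 1, 3, 5 and 7, and 138, 160.2 and 169 CPM in the pool. Neutrophils were higher in 6 of 6 pairs of sums, at ratios of 1.93 to 4.77, and the fitted difference was 4.42-fold (log2 2.15 ± 0.23, adjusted p 1.25e-06, edgeR). Under hashtags 1 to 7 of the blood and heart pool, neutrophils held 139, 101, 98.8, 99.97, 115, 141 and 177 CPM. Monocytes/macrophages held 187, 203, 226, 209.8, 192, 138 and 148 CPM. Monocytes/macrophages were thus higher under hashtags 1 to 5, the 5 of 7 hashtags with intervals apart. Under hashtags 6 and 7 neutrophils had the higher value, but the intervals of the classes overlapped. Ratios of neutrophils to monocytes/macrophages ran from 0.437 to 1.19. The unnamed cluster 3 of that pool, described below, is in neither class. No day effect was called in the heart. After TMM scaling, neutrophils of both experiments were lower on day 5 than on day 1, by -0.99 and -0.86 (log2). The fitted change was -0.87 ± 0.39 (adjusted p 0.187, edgeR). Unscaled CPM did not fall in this way, going from 260.1 to 315 in the CD45+ libraries and from 608 to 603 in the pool. Scaled by total counts alone, the fitted change was 0.14, and the median over all genes was 0.93 higher than in the main scaling. NK cells held 226 CPM, dendritic cells 117, T cells 103 and B cells 57.8 CPM on day 7, and the intervals of dendritic cells, T cells and monocytes/macrophages (132 CPM) overlapped.

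**Figure D3:**
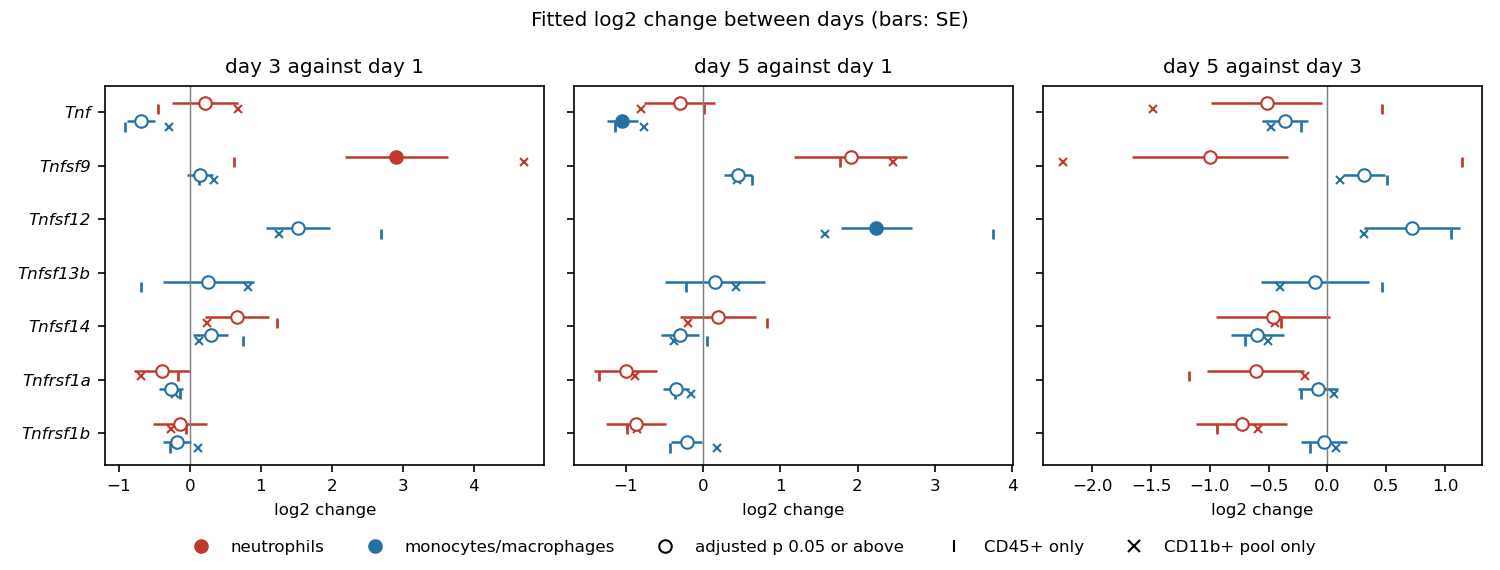
Fitted log2 change of each member between days (x axis; circles with SE bars, filled where the adjusted p is under 0.05) in neutrophils (red) and monocytes/macrophages (blue), with the change within the CD45+ libraries (ticks) and within the CD11b+ heart pool (crosses) beside it. Tnfsf9 in neutrophils on day 3 and Tnf and Tnfsf12 in monocytes/macrophages on day 5 are the filled points, and the values of the 2 experiments lie far apart for Tnfsf9.

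Levels were also read in the clusters, which were built without these genes. In the CD11b+ heart pool, neutrophil cluster 2 (1031 cells) held 4120 CPM of Tnf, 761 of Tnfrsf1b and 228 of Tnfsf9. The other neutrophil cluster, cluster 3 (439 cells, led by Retnlg, Lcn2 and S100a9), held 1464, 607 and 20.8 CPM. The clusters thus differed most in Tnfsf9, and Tnf itself was among the 10 leading genes of cluster 2, with Icam1, Ccl3 and Tnfaip3. Among monocytes/macrophages of that pool, cluster 4 (132 cells, led by Saa3, Ccl24 and Fn1) had the highest Tnf, 580 CPM, and Tnfsf9, 295 CPM. In the CD45+ libraries cluster 14, led by Saa3, Fn1 and Hp, had the highest Tnfsf9 of the class, 464 CPM, and cluster 9, led by Cxcl10 and Rsad2, the highest Tnf, 401 CPM. In the blood and heart pool neutrophil cluster 5 (539 cells, led by Cxcl2 and Il1r2) had 63.5 CPM of Tnf. Cluster 3 of that pool (815 cells, led by Ear2, Ace and Pou2f2), which the markers left unnamed, had 655 CPM of Tnfrsf1b, above all named clusters there, and 3.27 CPM of Tnfsf14. Clusters are not replicates, and these values carry no test.

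**Figure D4:**
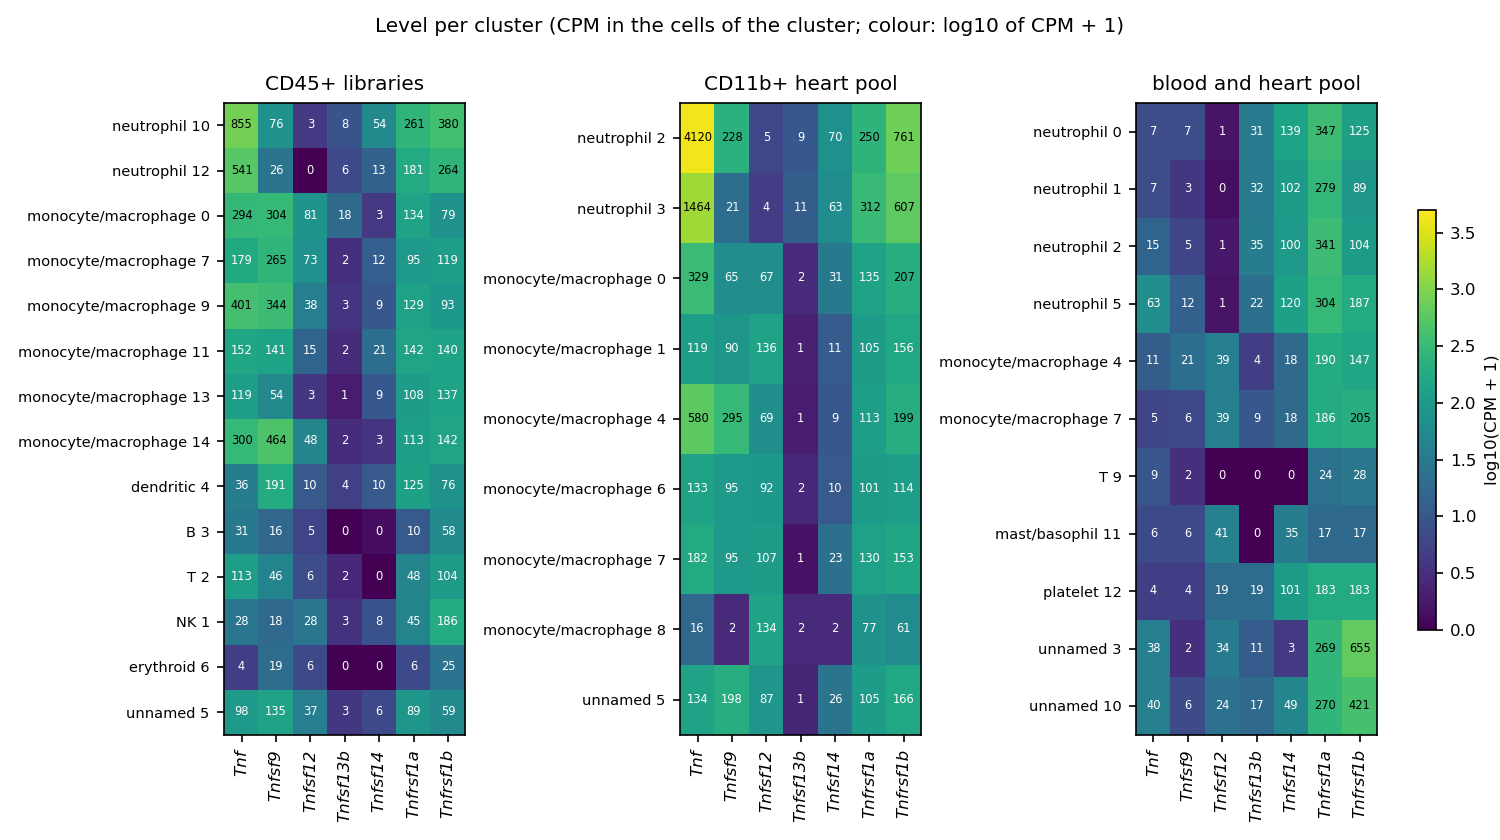
Level of the members (columns) in each cluster (rows, with class and cluster number) of the 3 experiments, printed as CPM and coloured by log10 of CPM + 1. Tnf reaches 4120 CPM in neutrophil cluster 2 of the CD11b+ heart pool, and Tnfrsf1b reaches 655 CPM in the unnamed cluster 3 of the blood and heart pool.

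Of the 45 listed ligand and receptor genes, 19 could be tested between classes, and 11 were higher and 3 lower in neutrophils (median log2 difference 1.68, against -0.14 over all 8515 genes, of which 25.0% were higher and 31.4% lower). Beyond the members these were Ltb (log2 6.52 ± 0.24), Tnfrsf18 (4.67 ± 0.35), Tnfrsf23 (3.85 ± 0.26), Fas (3.04 ± 0.24), Relt (2.17 ± 0.30) and Cd27 (1.68 ± 0.37) on the higher side and Tnfrsf11a (-4.57 ± 0.42) and Cd40 (-2.54 ± 0.41) on the lower side. Ltb, the membrane part of lymphotoxin and a neighbour of Tnf, was at 127 to 296 CPM in heart neutrophils and 2.01 to 4.39 CPM in monocytes/macrophages of days 1, 3 and 5. Neutrophils of the blood and heart pool held 518 to 635 CPM of it, above all heart values. Tnfrsf18 (GITR), at 7.08 to 33.8 CPM in heart neutrophils, and Tnfrsf23, a TRAIL decoy receptor, at 57.3 to 297 CPM, were above monocytes/macrophages of the same days (0.230 to 1.91 and 5.25 to 29.4 CPM). Tnfrsf11a (RANK) was at 13.3 to 68.2 CPM in monocytes/macrophages. Cd40 and Tnfrsf11a lost their call with pool classes from the Ly6G antibody (-0.30 and -0.59).

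**Figure D5:**
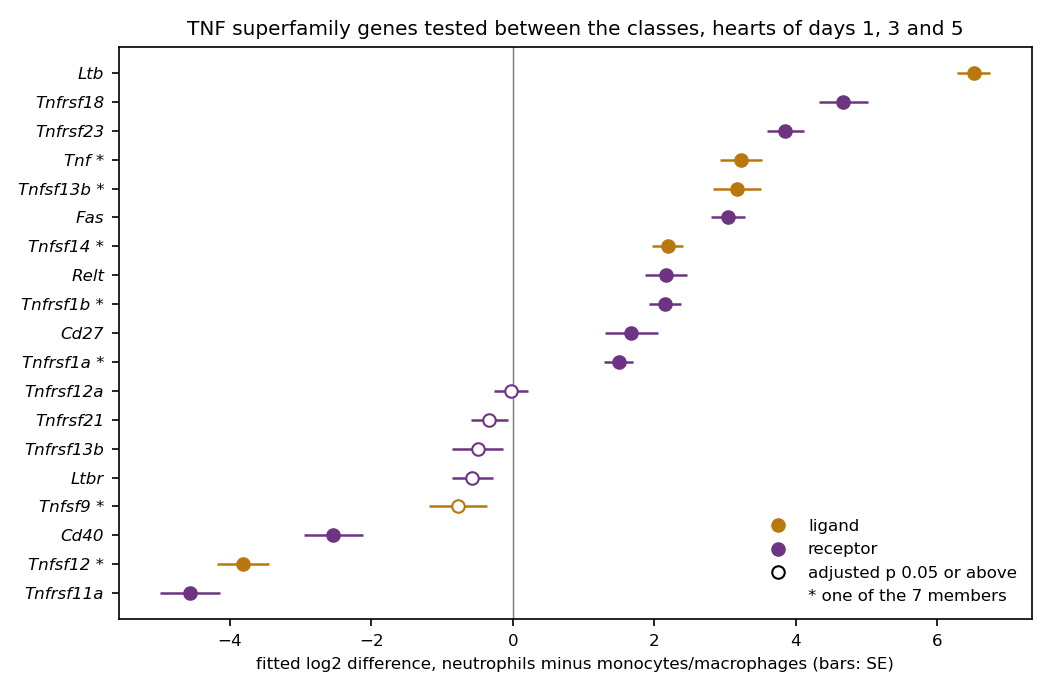
Fitted log2 difference between neutrophils and monocytes/macrophages (x axis, positive where neutrophils are higher, bars are SE) for the 19 superfamily genes tested in the hearts of days 1, 3 and 5, with ligands in brown and receptors in purple. Filled points have an adjusted p under 0.05, and Ltb and Tnfrsf11a are at the ends.

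Downstream genes were read from lists of adaptors and kinases, of ligand processing and of known TNF-induced genes. Between classes, 8 of 26 tested signalling genes were higher and 3 lower in neutrophils, 3 of 4 processing genes were higher, and 10 of 12 TNF-induced genes were higher and 2 lower. Over all genes 56.4% were called between the classes, 25.0% higher and 31.4% lower. Icam1, the endothelial and leukocyte adhesion molecule, was among the higher (3.26 ± 0.26) and Ccl2, the monocyte chemoattractant, among the lower (-2.91 ± 0.38). Adam17, the sheddase, differed by 0.09 ± 0.21 (adjusted p 0.751, edgeR). In monocytes/macrophages on day 5 against day 1, 5 of 12 TNF-induced genes were lower and none higher (all genes 6.00% lower and 4.52% higher), with Ccl2 at -2.67 ± 0.18, Sod2 at -2.56 ± 0.51 and Cxcl2 at -2.22 ± 0.19. Of 27 signalling genes, Fadd (2.03 ± 0.44) was higher and 3 were lower. Of 14 tested receptors, Cd40 (1.03 ± 0.22) was higher and 4 lower, with Tnfrsf9 the lowest. Neutrophil markers also fell in this class from day 1 to day 5, as given for Tnf. Between the classes Cxcl2 (2.43 ± 0.29) and Sod2 (1.16 ± 0.20) were higher in neutrophils and Ccl2 lower. The part of neutrophil transcripts in these changes was not tested. In monocytes/macrophages, day 3 against day 1 gave lower Ccl2 (-1.60 ± 0.17) and Cxcl2 (-1.51 ± 0.19) and lower Tnfrsf9. The calls of Ccl2 and Cxcl2 on day 3 were each lost under 8 of 16 alternatives. In neutrophils Rhbdf2, a partner of Adam17 in TNF shedding, was lower by -2.04 ± 0.43 on day 3 and by -1.86 ± 0.47 on day 5 against day 1, calls each lost under 6 of 16 alternatives. Fas (-2.06 ± 0.47), Sod2 (-1.92 ± 0.49) and Casp8 (-1.88 ± 0.54) were also lower on day 5. The CD45+ sum of day 5 holds 40 neutrophils, and without it none of the 4 day 5 calls was kept (adjusted p 0.155 to 0.371, edgeR). The calls of Cd40 and Fadd were each kept under 7 of 16 alternatives, and the sign of Cd40 turned under 1 of the others.

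Some genes had a pattern like that of a member over the 12 sums of the hearts (Pearson r of log2 CPM over 5980 genes with a mean of at least 10 CPM). For Tnf these were Arf2 (0.99), Icam1 (0.99) and Pim1 (0.98). For Tnfsf9 they were Pisd (0.90), Tmem199 (0.89) and Gstp1 (0.89), the lowest values of the members. Tnfsf12 was most like Nxpe5 (0.99), Tnfsf13b like Rhof (0.98), Tnfsf14 like Rab27a (0.99), Tnfrsf1a like Clec4d (0.98) and Tnfrsf1b like Snx10 (0.99). The 12 sums share 2 classes, so any gene that separates the classes will be alike in this measure.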

How the data were processed

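The deposited matrices give whole UMI counts for genes and barcodes, which the authors made with Cell Ranger on mm10/GRCm38, per the submitters' processing notes. The file headers of both pools name version 3.0.2, and the version for the CD45+ libraries is not given in the sources used here. A barcode needed 200 detected genes and no more than 10% of its UMIs from mitochondrial genes. Doublets were taken out by hashtag in the pools (6.28% and 12.5% of barcodes with several hashtags, 7.81% and 1.40% with none) and with Scrublet in the CD45+ libraries (2 to 6 cells per library, too few to show that the caller worked). Cells of each experiment were clustered with scanpy 1.11.5 (2000 variable genes, 30 components, 15 neighbours, Leiden at 0.5) and clusters were named from fixed markers, at least 3 of them. UMIs were summed per class, day and experiment where at least 30 cells were present. Sums were tested with edgeR 4.0.16 (filterByExpr, TMM) in R 4.3.3, with DESeq2 1.42.0 as an alternative. Day fits had 6 sums per class and the fit between classes 12. On simulated counts with 200 genes changed by a log2 fold of 2, the neutrophil fit recovered 53.0%, 37.0% and 45.5% of them on day 3 against 1, day 5 against 1 and day 5 against 3 (5825 to 5850 genes), and the monocyte/macrophage fit 67.5%, 69.5% and 72.0% (10377 or 10378 genes). The members and gene lists were chosen with earlier results of these data known. Beyond the members, list genes named in the text are those called per comparison, at most 4 highest and 4 lowest, by a fixed rule. Fas, Relt, Cd27, Adam17, partner receptors of the ligands and the clusters singled out were named after their values were seen. Hashtags 1 to 7, which the labels pair with no condition, entered no test. Alternatives changed the normalization, filter, experiment term, days fitted, cell classes, mitochondrial limit and clustering genes, and left out each sum in turn. None was added after the data were seen. Total UMIs used per sample were 3611089 to 92965617, and intervals cover counting error only.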

Additional observations from a re-analysis of the deposited data

Results flagged for a closer look

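The day 7 CD45+ library entered no test between days, since the CD11b+ heart pool had no cells of that day. Against the single steady-state library, 3 members were higher and 1 lower in its monocytes/macrophages with Poisson 95% intervals apart, which cover counting error only. The same held for 12.1% (higher) and 11.9% (lower) of 14856 genes with a UMI. Tnfsf9, the 4-1BB ligand, was at 319 CPM against 253 CPM. Tnfsf14, the ligand LIGHT, was at 10.9 CPM against 2.33 CPM. Tnfrsf1b, the leukocyte TNF receptor, was at 132 CPM against 75.5 CPM. Tnfsf13b, the B-cell survival factor, was the lower one, at 3.75 CPM against 19.1 CPM. Cluster 0 held 96.9% of the steady-state cells of the class and cluster 7 held 68.3% of those of day 7. With 1 library for each time, day and library cannot be told apart.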

How the results depend on the processing

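Of the 3 members called between days, Tnfsf9 in neutrophils (day 3) was no longer called under 6 of 16 alternatives, Tnf in monocytes/macrophages (day 5) under 9 and Tnfsf12 (day 5) under 6, with the same sign throughout. The cause was not tested. Between classes, Tnfsf12 and Tnfrsf1a lost their call only with pool classes taken from the Ly6G antibody. That alternative put many cells of monocyte/macrophage clusters into the neutrophil class, whose pool sum of day 3 grew from 4034983 to 17756444 UMIs. Cd40 in monocytes/macrophages (day 5) turned to -0.24 when the constant in cluster naming was 0.05. The counts of genes called moved as follows, with the order of comparisons day 3 against 1, day 5 against 1 and day 5 against 3 unless stated. In neutrophils (145, 443 and 0 in the main fit) they were 445 and 1203 for the first 2 comparisons with total counts alone, 0 and 0 without the experiment term (no replicate block), and 81, 28 and 1 with classes from each cell's own markers. The first was 329 and the last 11 without the filter. The last was also 1 with DESeq2, 29 with only the 2 days compared and 18 with the Ly6G classes. In monocytes/macrophages (89, 1113 and 6) they were 621, 1822 and 123 without the filter, 0, 0 and 0 without the experiment term, 222, 386 and 1512 with only the 2 days compared, 33, 157 and 0 with the naming constant, 0, 411 and 0 with the wider mitochondrial limit and 0, 462 and 0 with the superfamily kept in clustering. The first and last were 497 and 108 with DESeq2, 6 and 3 with total counts alone and 4 and 0 with own markers, and the last was 1 with the Ly6G classes. Between classes (4803) they were 3189 with the naming constant and 483 with the Ly6G classes. For the difference in day effect (2, 63 and 0) they were 193, 527 and 2 with DESeq2 and 159, 430 and 19 without the filter. The first 2 were 0 and 739 with total counts alone, 0 and 6 with the naming constant, 1 and 0 with own markers and 0 and 0 with the Ly6G classes. Leaving out 1 sum at a time gave 57 to 711, 30 to 988 and 0 to 31 in neutrophils, 10 to 2816, 281 to 3698 and 1 to 1428 in monocytes/macrophages, 3802 to 5143 between classes and 0 to 221, 0 to 526 and 0 to 7 for the difference in day effect. A lone sum left on a day was assumed to vary like the others. Tnfsf12 and Tnfsf13b had too few UMIs in neutrophils to be tested between days.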
